A study of Mus musculus with 20 samples.

Results

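The core circadian clock genes Arntl, Npas2, Per1, Per2, Per3, Cry1, Nr1d1, Nr1d2, Dbp and Tef were followed in mouse liver and in a macrophage-like cell line. They are 10 of 24972 gene rows and were chosen by symbol, as members of the clock, with earlier results of these data known. Total liver was sequenced from mice fed an alcohol diet or a control diet for 6 weeks, all labelled male. The groups were RageΔMye on alcohol (n = 3), RageΔMye on control diet (n = 3), WT on alcohol (n = 4) and WT on control diet (n = 4). RageΔMye is taken to mean that myeloid cells lack Ager, which encodes the receptor RAGE, and the labels do not give the Cre driver. RAW264.7 cells, a mouse monocyte/macrophage-like line labelled male and WT, received either a complex of IL1β with [O] HMGB1, an oxidised form of an alarmin, for 6 hours (n = 3) or BSA (n = 3). The series concerns alcohol-associated and fibrotic liver disease, and nothing in the labels says that replicates came from separate animals or cultures, so the p-values measure only the spread between these libraries. The time of day of tissue collection is not given in the sources used here.

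The mammalian clock is a feedback loop of transcription. ARNTL, also called BMAL1, pairs with CLOCK or NPAS2 and drives genes that carry E-boxes, among them the Per and Cry genes, Nr1d1, Nr1d2, Dbp and Tef. PER and CRY proteins then inhibit that pair, and NR1D1 and NR1D2 (REV-ERB alpha and beta) repress Arntl through ROR elements, so that Arntl transcripts in liver peak at the opposite phase to Nr1d1 and Dbp. DBP, TEF and HLF are transcription factors that act on D-boxes and carry the rhythm to metabolic genes, with NFIL3 as a repressor at the same element.

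Promoter windows of 9 of the 10 genes were found in RefSeq (GRCm38.p6, the mm10 build), from 250 bases before to 50 bases after each start. They are shown because the loop is wired through these elements and because Nr1d1, Tef and Per3 fell together in WT liver while Per1 and Cry1 did not pass the test. Capitals mark an E-box (CACGTG), an E-prime box (CACGTT, printed as AACGTG where it lies on the opposite strand), a D-box (TTATGNAA) or a ROR element (TAGGTCA), searched on both strands. Arntl, Per1 and Tef had 2 windows each, and a window with the most matches is shown. Each line gives the 250 bases before the start, 5′ to 3′ on the gene's strand. The line of Arntl instead gives 30 bases around an element 31 bases after its second start. The stretches lie at chr11:98775378-98775627 (minus strand) for Nr1d1, chr15:81802423-81802672 (plus) for Tef, chr4:151044666-151044915 (minus) for Per3, chr11:69098699-69098948 (plus) for Per1, chr10:85185055-85185304 (minus) for Cry1 and chr7:113207529-113207558 (plus) for Arntl.
Nr1d1: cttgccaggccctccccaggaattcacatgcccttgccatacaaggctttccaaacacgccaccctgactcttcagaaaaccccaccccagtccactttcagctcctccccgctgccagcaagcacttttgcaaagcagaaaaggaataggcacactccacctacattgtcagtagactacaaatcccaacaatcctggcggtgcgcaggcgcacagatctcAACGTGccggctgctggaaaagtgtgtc
Tef: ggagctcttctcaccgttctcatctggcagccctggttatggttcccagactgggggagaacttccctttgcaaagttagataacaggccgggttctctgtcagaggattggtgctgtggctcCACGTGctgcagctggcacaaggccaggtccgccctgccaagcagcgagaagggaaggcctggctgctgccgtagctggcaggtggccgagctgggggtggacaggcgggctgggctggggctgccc
Per3: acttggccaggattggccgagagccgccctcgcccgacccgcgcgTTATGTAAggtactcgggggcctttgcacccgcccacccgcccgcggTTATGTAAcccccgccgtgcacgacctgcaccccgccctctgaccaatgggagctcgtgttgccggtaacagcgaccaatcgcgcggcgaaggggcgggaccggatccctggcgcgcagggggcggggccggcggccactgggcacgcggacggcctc
Per1: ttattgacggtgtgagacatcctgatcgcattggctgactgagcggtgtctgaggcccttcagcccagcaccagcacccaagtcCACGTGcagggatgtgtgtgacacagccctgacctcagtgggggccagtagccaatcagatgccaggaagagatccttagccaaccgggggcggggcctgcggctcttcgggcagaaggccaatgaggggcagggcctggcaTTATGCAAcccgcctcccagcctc
Cry1: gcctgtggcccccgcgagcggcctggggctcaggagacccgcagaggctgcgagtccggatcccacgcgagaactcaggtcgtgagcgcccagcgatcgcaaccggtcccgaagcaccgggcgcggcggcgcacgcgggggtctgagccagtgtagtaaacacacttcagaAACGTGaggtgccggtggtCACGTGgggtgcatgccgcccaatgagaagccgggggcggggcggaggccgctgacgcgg
Arntl: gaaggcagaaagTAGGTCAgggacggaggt

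An E-box stood in a window of Per1, Cry1 and Tef, 3 of the 9 genes, and in 7.15% of all 32851 mouse windows. The 9 genes had 12 windows, and the shares given here count windows, not genes. An E-prime box, held by 4.68% of all windows, lay 28 bases before the start of Nr1d1 and 79 bases before that of Cry1. A D-box, held by 3.38% of windows, lay 24 bases before 1 of the 2 starts of Per1 and at 205 and 158 bases before the start of Per3. The ROR element, the binding site of the REV-ERB proteins, stood in a window of Arntl alone among the 9 genes and in 2.61% of all windows. The searched letters were not in the windows of Npas2, Nr1d2 and Dbp. These matches describe sequence, and the same E-box letters stood before Tef, which fell in WT liver on alcohol, and before Per1 and Cry1, which did not pass the test.

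The libraries differed in ways that bear on every value below. Libraries labelled RageΔMye listed 7596 to 8502 genes above 0 and WT libraries 15113 to 15599, and the commonest nonzero value was 14.4 to 20.5 TPM in RageΔMye and 0.0576 to 0.0835 TPM in WT. Replicates spread by a median log2 SD of 0.675 to 0.692 for RageΔMye and 0.142 to 0.189 for WT, and a 0 in the RageΔMye groups is given as listed at 0, not as absence. Ager, the targeted gene, went against the genotype label, at 112, 93.1 and 166 TPM in libraries labelled RageΔMye on alcohol and 124, 101 and 128 TPM in those on control diet. It was at 0.133, 0.0378, 0.478 and 0.125 TPM in WT libraries on alcohol and at 0.199, 0.153, 0.0194 and 0.105 TPM in WT on control diet. No exon overlaps those of Ager on the opposite strand in GENCODE vM21, but the strand setting of the counting is unknown and its part in the Ager values was not tested. The WT diet groups also differed in sex-linked transcripts, although all carry the label male. Xist was at 17.8 to 27.3 TPM in WT on alcohol and 0.00165 to 0.135 TPM in WT on control diet, and 4 Y-linked genes summed to 0 to 0.0161 TPM on alcohol and 11.3 to 16.6 TPM on control diet. The major urinary protein genes, made chiefly in male liver, held 0.177% to 0.251% of TPM in WT on alcohol and 7.26% to 10.9% in WT on control diet. Diet and these sex-linked differences cannot be told apart in any WT result that follows. All 6 hepatocyte markers were detected in liver, summing to 137937 to 156590 TPM in WT on alcohol and 117309 to 142785 TPM in WT on control diet.

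The first comparison asked how the alcohol diet changed the clock in WT liver. Of the 9 clock genes tested, 4 fell and none rose: Nr1d1, Per3, Tef and Per2, all from the arm that ARNTL drives. Arntl, the driver itself, had nearly the same mean in both diets and a wide spread within each. The 4 genes that fell also had no overlap between diets. Across all genes tested, 17.9% fell and 13.3% rose, while 18.4% were lower and 12.3% higher without overlap. The clock genes stood in libraries in which a sizeable part of all genes moved. The median log2 fold change was -0.50 over the 9 clock genes and -0.05 over all 9747 genes tested. In a joint fit of all 14 liver libraries Nr1d1 passed (limma adjusted p = 0.0277), and Tef (0.435), Per3 (0.780) and Per2 (adjusted p = 1) lost their calls at the same fold changes. With library weights per genotype in that joint fit all 4 passed, at adjusted p of 0.000968 for Tef, 0.00333 for Per3, 0.0117 for Per2 and 4.0e-05 for Nr1d1, and Dbp passed too. In these bulk samples fewer cells of a type and less RNA per cell cannot be told apart.

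**Figure D1:**
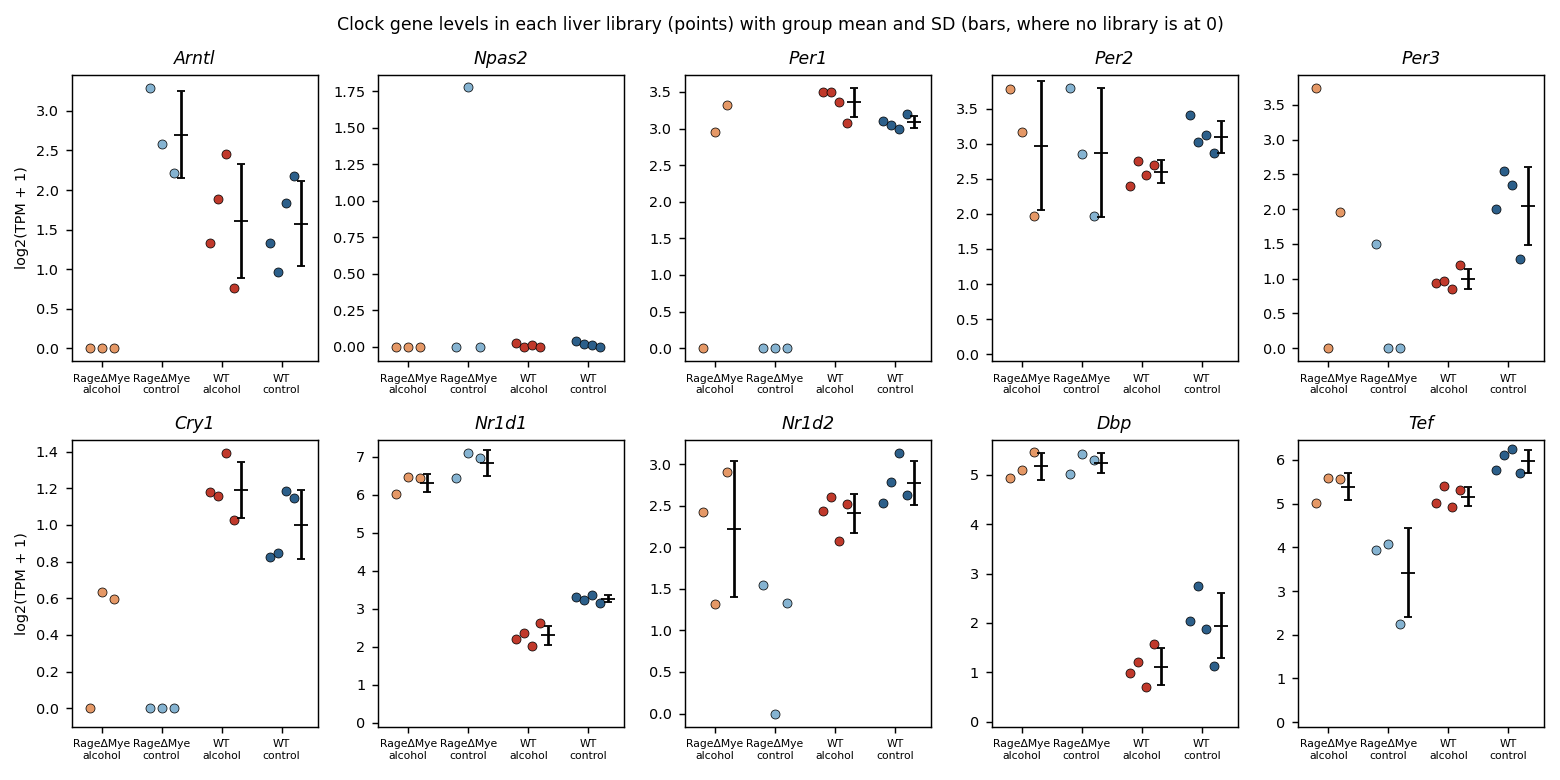
Level of each clock gene in every liver library, as log2(TPM + 1) on the vertical axis, with a point per library and, where no library of a group is at 0, a bar for the group mean and SD. In WT liver the alcohol points of Nr1d1, Per2, Per3 and Tef lie below all control points, Arntl overlaps fully, and Arntl is listed at 0 in all 3 RageΔMye libraries on alcohol.

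Nr1d1 encodes REV-ERB alpha, the nuclear receptor that represses Arntl (chromosome 11, 98767932 to 98775333, minus strand). It was at 3.59, 4.13, 3.06 and 5.18 TPM in WT livers on alcohol and at 8.96, 8.45, 9.22 and 7.82 TPM in WT livers on control diet. All 4 alcohol libraries lay below the lowest control library. The means were 3.99 ± 0.907 TPM on alcohol and 8.61 ± 0.615 TPM on control diet (SD, n = 4 each), a log2 fold change of -0.96 (SE 0.143, 95% interval -1.28 to -0.65, limma adjusted p = 0.00103). Its log2 fold change stayed between -1.07 and -0.87 when each library was left out in turn, and it passed each time. Nr1d2, its paralog REV-ERB beta (chromosome 14, 18204054 to 18239127, minus strand), was at 4.42, 5.10, 3.22 and 4.73 TPM on alcohol and 4.78, 5.88, 7.80 and 5.21 TPM on control diet. These ranges overlapped and the gene did not pass (-0.36, SE 0.166, interval -0.73 to 0.01, limma adjusted p = 0.122).

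The Period genes encode the PER proteins, which with the CRY proteins inhibit the ARNTL pair. Per3 (chromosome 4, 151003652 to 151044665, minus strand) was at 0.924, 0.953, 0.808 and 1.29 TPM in WT livers on alcohol and at 3.03, 4.87, 4.11 and 1.43 TPM in those on control diet. The groups did not overlap, but control replicate 4 stood close to the alcohol libraries. Per3 fell by 1.06 on the log2 scale (SE 0.237, interval -1.58 to -0.53, limma adjusted p = 0.00810), which a pseudocount of 1 TPM understates at these levels. Per2 (chromosome 1, 91415982 to 91459324, minus strand) was at 4.27, 5.76, 4.89 and 5.50 TPM on alcohol and at 9.58, 7.10, 7.69 and 6.28 TPM on control diet. Again no alcohol library reached the lowest control, by a narrow margin. Per2 fell by 0.50 (SE 0.144, interval -0.82 to -0.18, limma adjusted p = 0.0251). Its call was lost without control replicate 1 (adjusted p = 0.0643), control replicate 3 (0.0580), alcohol replicate 1 (0.0769) or alcohol replicate 3 (0.0577).

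Per1, the Period gene that also responds acutely to glucocorticoid and light cues (chromosome 11, 69095217 to 69109960, plus strand), had the other sign. It was at 10.3, 10.3, 9.30 and 7.40 TPM on alcohol and 7.62, 7.31, 6.97 and 8.17 TPM on control diet in WT. Alcohol replicate 4 fell among the controls and the other alcohol libraries were above them (0.27, SE 0.128, interval -0.01 to 0.55, limma adjusted p = 0.134). Cry1 (chromosome 10, 85131700 to 85185064, minus strand) encodes the cryptochrome that acts late in the cycle. It was at 1.26, 1.23, 1.63 and 1.04 TPM on alcohol and 0.774, 0.801, 1.27 and 1.22 TPM on control diet, overlapping groups (0.19, SE 0.127, interval -0.09 to 0.47, limma adjusted p = 0.287).

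Tef and Dbp encode the D-box factors through which the clock reaches liver metabolism. Tef (chromosome 15, 81802421 to 81826863, plus strand) had the highest TPM of the 10 genes in every WT library. It was at 31.6, 41.1, 29.5 and 38.5 TPM in WT livers on alcohol and at 53.7, 68.8, 75.7 and 51.3 TPM in those on control diet. No alcohol library reached the lowest control library. The means were 35.2 ± 5.51 TPM on alcohol and 62.4 ± 11.8 TPM on control diet (SD, n = 4 each), a log2 fold change of -0.80 (SE 0.160, interval -1.16 to -0.45, limma adjusted p = 0.00463). Dbp (chromosome 7, 45705088 to 45710203, plus strand) was at 0.975, 1.32, 0.620 and 1.97 TPM on alcohol and 3.09, 5.72, 2.67 and 1.18 TPM on control diet. Control replicate 4 lay inside the alcohol range and the gene did not pass (-0.83, SE 0.302, interval -1.50 to -0.16, limma adjusted p = 0.0597). Dbp passed without control replicate 4 (adjusted p = 0.00757) or without alcohol replicate 4 (0.0482), and in a joint fit with library weights per genotype (0.0290).

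The activators gave a different picture. Arntl (chromosome 7, 113207465 to 113314126, plus strand) was at 1.52, 2.71, 4.47 and 0.694 TPM in WT livers on alcohol and at 1.52, 0.949, 2.58 and 3.51 TPM in WT livers on control diet. The lowest and the highest of the 8 libraries were both on alcohol. The mean was 2.35 ± 1.64 TPM on alcohol and 2.14 ± 1.13 TPM on control diet (SD, n = 4 each). The log2 fold change was 0.03, with an interval of -0.75 to 0.82 that leaves room for changes of either sign (SE 0.354, limma adjusted p = 0.952). Its sign depended on which library was left out, with values from -0.25 to 0.32. Npas2, the paralog of CLOCK (chromosome 1, 39193731 to 39363236, plus strand), was at 0 to 0.0181 TPM on alcohol and 0 to 0.0255 TPM on control diet, under the level for testing of a mean of 1 TPM in a group. Clock, the usual partner of ARNTL, was at 0.863, 1.37, 1.16 and 0.824 TPM on alcohol and 1.50, 1.07, 2.38 and 2.52 TPM on control diet (-0.45, limma adjusted p = 0.0750).

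**Figure D2:**
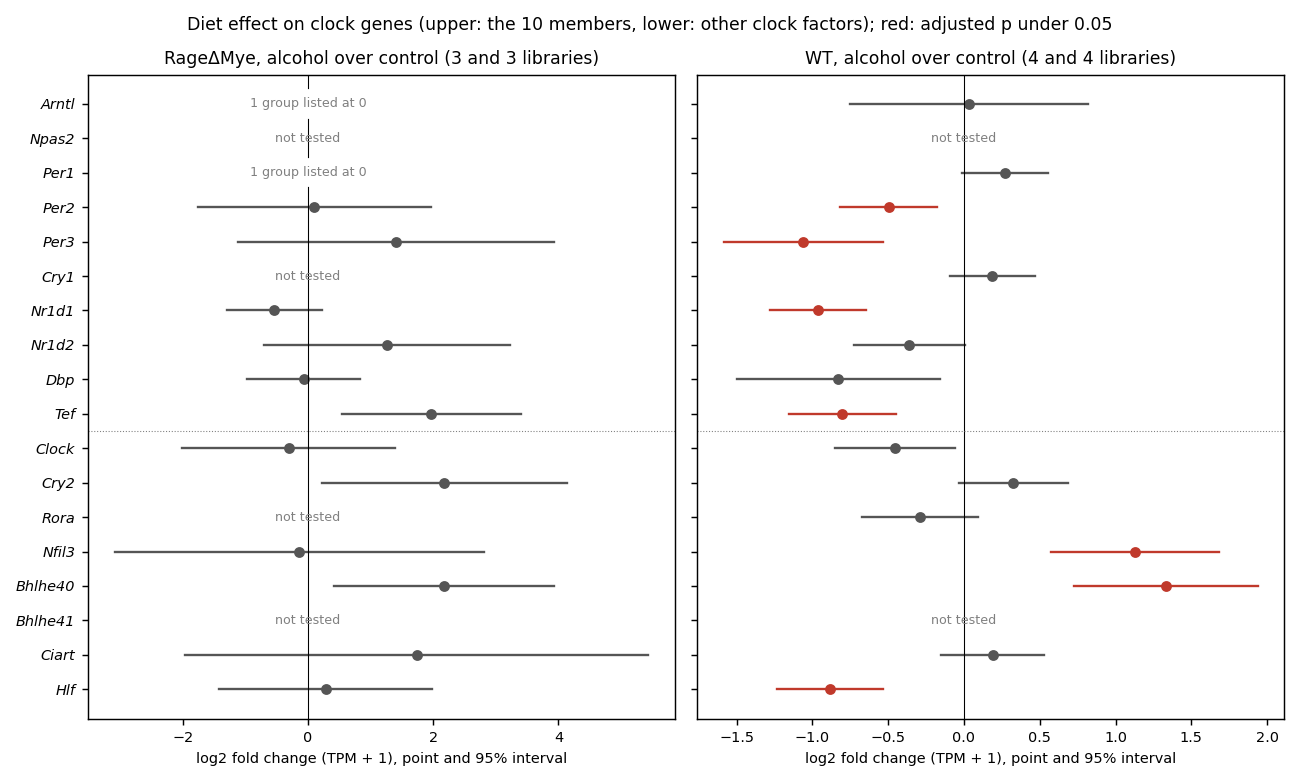
Log2 fold change of alcohol over control diet, on the TPM + 1 scale, with its 95% interval, for the 10 clock genes above the dotted line and 8 other clock factors under it, in libraries labelled RageΔMye (left) and in WT (right). In WT, Per2, Per3, Nr1d1, Tef and Hlf passed below 0 and Nfil3 and Bhlhe40 above it, and no gene in the left panel passed; a gene with a group listed at 0 has no fold there.

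Among 9 other clock factors 8 were tested in WT, of which 2 rose and 1 fell, where 13.3% of all genes rose and 17.9% fell. Nfil3, the repressor that competes with DBP and TEF at D-boxes, was at 117, 80.3, 61.1 and 55.0 TPM on alcohol and 28.4, 26.2, 48.4 and 36.0 TPM on control diet, without overlap (1.13, SE 0.250, limma adjusted p = 0.00767). Bhlhe40, a repressor that binds E-boxes, was at 134, 84.8, 50.5 and 62.5 TPM on alcohol and 34.0, 23.2, 26.8 and 39.2 TPM on control diet, again without overlap (1.33, SE 0.274, limma adjusted p = 0.00557). Hlf, the D-box activator related to Dbp and Tef, was at 2.86, 3.85, 2.84 and 4.35 TPM on alcohol and 5.99, 6.75, 9.10 and 7.14 TPM on control diet (-0.88, SE 0.158, limma adjusted p = 0.00285). Thus 2 of the 3 D-box activators fell past the threshold, Dbp had the same sign without passing, and the repressor of the same element rose. Cry2 (0.33, adjusted p = 0.149), Rora (-0.29, 0.228) and Ciart (0.19, 0.373) did not pass in limma. Of 9 kinases, ligases and corepressors of the clock 6 were tested, and Btrc, a ubiquitin ligase subunit, fell (-0.63, limma adjusted p = 0.00734).

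Whether activators and repressors shift as a phase difference would was asked library by library, as a description without a test. An arm is the mean log2(TPM + 1) of its genes. Arntl and Npas2 were taken as activators, and Per1, Per2, Per3, Nr1d1, Nr1d2, Dbp and Tef as repressors and outputs. The hours at which these genes peak were not measured here, so the mean of an arm need not follow a shared phase. In WT the repressor and output arm was at 2.50, 2.68, 2.36 and 2.71 on alcohol and at 3.17, 3.36, 3.30 and 2.85 on control diet. All alcohol libraries were below all controls in that arm. Arntl, the tested gene of the other arm, was at 0.76 to 2.45 on alcohol and 0.96 to 2.17 on control diet, and its interval given above covers changes of either sign. Npas2 was near 0 in WT, so the activator mean dampens any change of Arntl. In alcohol replicate 2 that mean was at 0.945 and Arntl at 1.89. Activators minus the other arm came to -1.82, -1.74, -1.13 and -2.33 on alcohol and -2.48, -2.87, -2.37 and -1.76 on control diet, which overlap. Arntl minus Dbp was 0.35, 0.68, 1.75 and -0.81 on alcohol and -0.70, -1.79, -0.04 and 1.05 on control diet, which overlap too. A shift of phase and a lower amplitude cannot be told apart from such libraries, since each diet is seen without its time of day.

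Within a diet group the libraries also differed from each other in the clock genes. Among the WT controls Arntl ran highest in replicate 4, then 3, 1 and 2, Clock had the same order, and Dbp had exactly the reverse. Per3 (2, 3, 1, 4), Nr1d1 (3, 1, 2, 4) and Hlf (3, 4, 2, 1) did not reverse it among the controls, from highest to lowest replicate. Among the WT livers on alcohol Arntl was highest in replicate 3 and lowest in 4. Dbp, Per3, Nr1d1, Hlf and Ciart were each highest in 4 and lowest in 3. The genes that follow did not have this order. Tef and Nr1d2 were highest in replicate 2 and lowest in 3, and Per2 was highest in 2 and lowest in 1. Per1 was highest in 1 and lowest in 4, and the output gene Usp2 was highest in 3. The highest library of a group exceeded the lowest by 6.44-fold for Arntl on alcohol and 3.70-fold on control diet. For Dbp the same ratio was 3.18-fold on alcohol and 4.83-fold on control diet. Nr1d1 spanned less, 1.70-fold on alcohol and 1.18-fold on control diet. These orders over 4 libraries are a description.

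**Figure D3:**
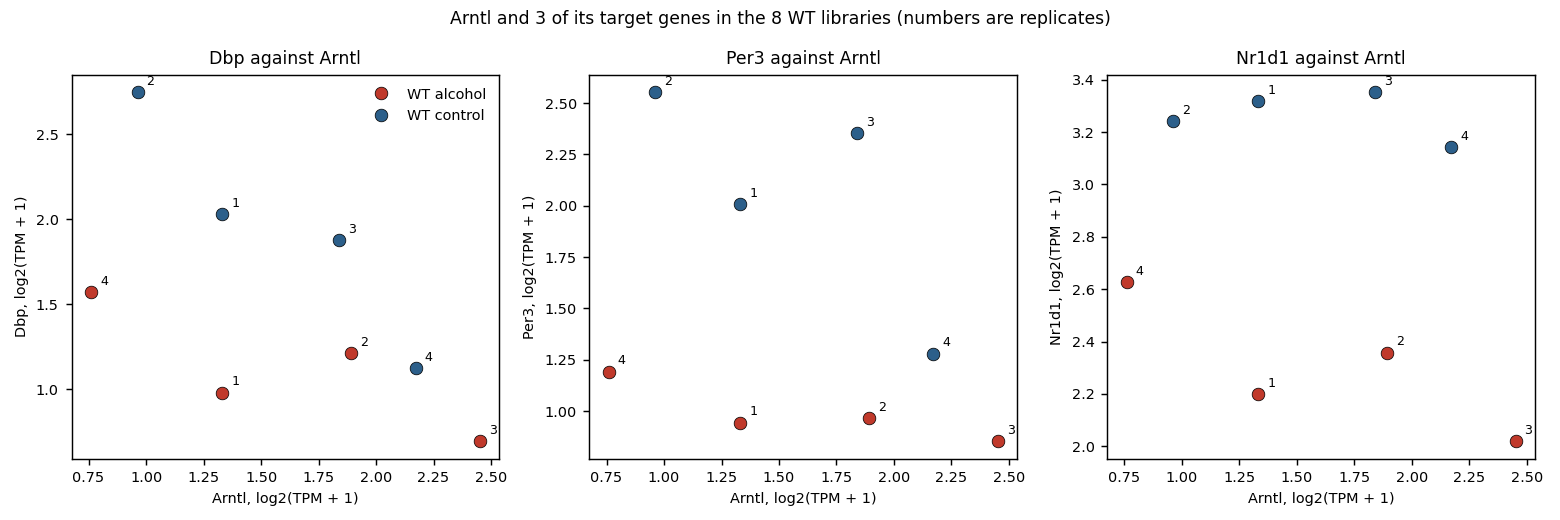
Dbp, Per3 and Nr1d1 on the vertical axes against Arntl on the horizontal axis, as log2(TPM + 1), in the 8 WT libraries, each point a library with its replicate number. In both diets the library with the least Arntl has more Dbp than the one with the most Arntl, and Nr1d1 separates the diets at any level of Arntl.

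The genes most like Arntl and Dbp over the 8 WT libraries were found by the root mean square difference of centred log2(TPM + 1), among 9738 tested genes. For Arntl they were Sec14l4 (0.215), Ms4a8a (0.262) and Bag2 (0.300). Sec14l4 was highest in control replicates 4 and 3 and alcohol replicate 3, at 201, 199 and 186 TPM, which were among the 4 libraries with the most Arntl. For Dbp they were Oxld1 (0.163), Dnph1 (0.182) and Rpp21 (0.183). Oxld1 was highest in control replicate 2, at 9.23 TPM, where Dbp was highest too.

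Known rhythmic genes of the liver moved in both directions in the same WT libraries. Of 21 such output genes 19 were tested, 6 rose and 4 fell, where 13.3% of all genes rose and 17.9% fell. The median log2 fold change was 0.19 over the list and -0.05 over all genes. Usp2, a ubiquitin protease that follows the ARNTL-driven phase, was at 3.78, 4.75, 4.80 and 4.65 TPM on alcohol and 17.3, 22.3, 25.4 and 9.11 TPM on control diet (-1.75, SE 0.257, limma adjusted p = 0.000965). Elovl3, a fatty acid elongase under clock control and also higher in male liver, was at 0.770 to 1.59 TPM on alcohol and 77.8 to 271 TPM on control diet (-6.12, limma adjusted p = 6.1e-07). Slc45a3 fell (-0.88, adjusted p = 0.00242), and Tspan4 (0.56, 0.00404) and Tfrc, the transferrin receptor gene (0.82, 0.00700), rose in limma.

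Of 11 genes that follow glucocorticoid or body temperature cues, which set peripheral clocks, 4 rose and 2 fell in WT, beside the 13.3% and 17.9% of all genes that rose and fell. The glucocorticoid-induced kinase gene Sgk1 was at 26.5, 26.3, 22.9 and 27.4 TPM on alcohol and 6.48, 8.02, 8.87 and 12.6 TPM on control diet (1.46, SE 0.170, limma adjusted p = 0.000259). Tsc22d3, the gene of the glucocorticoid-induced leucine zipper, was at 21.7, 30.8, 41.5 and 27.2 TPM on alcohol and 121, 121, 92.6 and 45.4 TPM on control diet (-1.56, SE 0.301, limma adjusted p = 0.00406). These 2 glucocorticoid targets thus had opposite signs, and Tsc22d3 was the only glucocorticoid gene of the list with a negative sign. Tat, given below, Dusp1 (0.59, limma adjusted p = 0.0282), Zbtb16 (0.37, 0.207) and Fkbp5 (0.18, 0.518) had the sign of Sgk1. The cold-induced RNA-binding protein gene Rbm3 (0.82, adjusted p = 0.00705) and Tat, a tyrosine-degrading enzyme gene (0.82, 0.0216), rose, and the heat-shock gene Hsph1 fell (-1.19, limma).

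**Figure D4:**
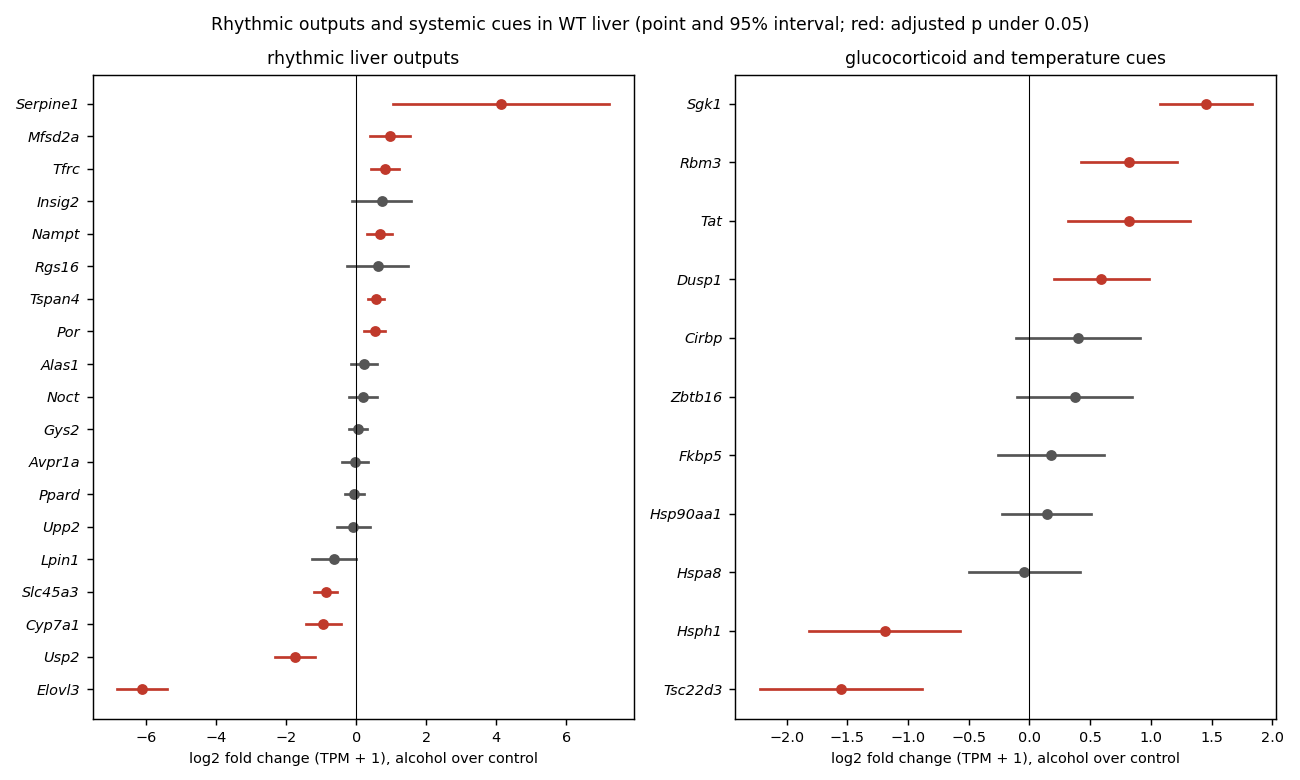
Log2 fold change of alcohol over control diet in WT liver, with its 95% interval, for the 19 tested rhythmic output genes (left) and the 11 glucocorticoid and temperature genes (right). Elovl3 at -6.12 and Usp2 at -1.75 lie lowest on the left, and Sgk1 at 1.46 and Tsc22d3 at -1.56 lie at the ends on the right.

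Some markers of other cell types also passed in the same WT libraries, where 13.3% of all genes rose and 17.9% fell. With 4 to 6 markers in a list, a count of 1 is near those shares. Of 5 neutrophil and lymphocyte markers 4 were tested and 2 rose, and the list summed to 89.0 to 131 TPM on alcohol and 25.9 to 66.9 TPM on control diet. The 4 endothelial markers summed to 55.7 to 135 TPM on alcohol and 41.2 to 102 TPM on control diet, with 1 higher. The 5 stellate and cholangiocyte markers summed to 65.7 to 118 TPM on alcohol and 36.5 to 55.3 TPM on control diet, with 1 of 4 tested higher. The 6 Kupffer cell and macrophage markers summed to 135 to 309 TPM on alcohol and 181 to 201 TPM on control diet, and none passed. The part of cell composition in the clock results was not tested.

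In the libraries labelled RageΔMye the diet comparison covered 8 of the 10 clock genes, and none passed. Across all genes, limma fitted to these 6 libraries called 0.0374% (4 of 10689) at an adjusted p under 0.05 and 6.99% at an unadjusted p under 0.05, and 2 clock genes, Arntl and Tef, were among the second. These 2 were also the clock genes whose diet groups did not overlap, 1 in each direction, where 5.83% of all genes were higher and 5.85% lower without overlap. Arntl was listed at 0 in all 3 libraries on alcohol and was at 8.82, 5.01 and 3.64 TPM in those on control diet (limma adjusted p = 0.377). No fold is given against a group listed at 0. Tef was at 31.6, 47.4 and 46.0 TPM on alcohol and 14.4, 15.9 and 3.73 TPM on control diet, so every alcohol library was above every control (1.97, SE 0.617, interval 0.54 to 3.40, limma adjusted p = 0.538). In a joint fit with the WT libraries, which lends these libraries the narrower WT spread, both passed (limma adjusted p = 0.00327 for Arntl and 0.0152 for Tef). The Y-linked sum was 0.276 to 1.74 TPM on alcohol and 3.16 to 4.50 TPM on control diet, and the hepatocyte markers summed to 39161 to 48862 TPM on alcohol and 43505 to 57694 TPM on control diet. The 4 endothelial markers summed to 0 to 3.78 TPM on alcohol and 5.15 to 54.4 TPM on control diet, and the 6 Kupffer cell markers summed to 38.0 to 256 TPM on alcohol and 217 to 299 TPM on control diet. The part of these in the clock values was not tested.

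The remaining repressors in the libraries labelled RageΔMye were scattered. Per1 was at 0, 6.73 and 9.01 TPM on alcohol and listed at 0 in all 3 libraries on control diet (limma adjusted p = 0.672). Per2 ran from 2.93 to 12.7 TPM on alcohol and from 2.91 to 12.9 TPM on control diet, nearly the same span (0.10, interval -1.76 to 1.96, limma adjusted p = 0.994). Per3 was at 12.4, 0 and 2.90 TPM on alcohol and at 1.84, 0 and 0 TPM on control diet, which overlap (1.40, interval -1.12 to 3.93, limma adjusted p = 0.751). Nr1d2 was at 4.38, 1.48 and 6.52 TPM on alcohol and 1.93, 0 and 1.51 TPM on control diet, with alcohol replicate 2 inside the control range (1.26, interval -0.71 to 3.23, limma adjusted p = 0.751). Nr1d1 was at 64.2, 87.0 and 85.5 TPM on alcohol and 86.6, 137 and 124 TPM on control diet (-0.54, interval -1.30 to 0.23, limma adjusted p = 0.751). Dbp was at 29.6, 33.4 and 43.4 TPM on alcohol and 31.3, 41.8 and 38.3 TPM on control diet, with no separation (-0.07, interval -0.98 to 0.83, limma adjusted p = 0.981). Cry1, at 0, 0.553 and 0.511 TPM on alcohol and listed at 0 on control diet, and Npas2, listed at 0 except for 2.42 TPM in control replicate 2, were under the level for testing.

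Read as arms, the RageΔMye libraries differed in both directions. The repressor and output arm was at 3.71, 3.51 and 3.95 on alcohol and 3.18, 2.78 and 2.54 on control diet, with all alcohol libraries above all controls. Since Arntl and Npas2 were listed at 0 in all 3 alcohol libraries, activators minus the other arm came to -3.71, -3.51 and -3.95 there, against -1.53, -0.598 and -1.44 on control diet. The arms lay in opposite directions, which rests in part on genes listed at 0 and on no gene that passed the test. Arntl and Npas2 were listed at 0 on alcohol. Clock, the partner of ARNTL that is not counted in the activator arm, was not listed at 0. It was at 0.987, 0.836 and 1.62 TPM on alcohol and 2.17, 0.617 and 2.56 TPM on control diet, which overlap (-0.31, limma adjusted p = 0.916). In the repressor and output arm, Per1 was listed at 0 in all 3 control libraries, Per3 in 2 and Nr1d2 in 1. Tef, of the same arm, was above 0 in every library and had a log2 fold change of 1.97 without passing. A phase difference was not tested. Per2, Nr1d1 and Dbp of the same arm had log2 fold changes of 0.10, -0.54 and -0.07 and did not pass. Exons of Nr1d1 and Dbp overlap other genes on the opposite strand, as given below, and the part of this overlap was not tested.

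Among the other clock factors 7 of 9 were tested in the libraries labelled RageΔMye and none passed. Bhlhe40 was at 30.9, 20.2 and 45.4 TPM on alcohol and 14.9, 7.04 and 1.64 TPM on control diet (2.18, SE 0.760, limma adjusted p = 0.614). Every alcohol library was above every control library. Of the 21 rhythmic outputs 16 were tested and none passed. At an unadjusted p under 0.05 there were 8, where 6.99% of all genes were under it. Without overlap 5 were higher and 3 lower, beside 5.83% and 5.85% of all genes. Elovl3, which fell in WT, was at 10.5, 0 and 0 TPM on alcohol and 90.4, 102 and 80.3 TPM on control diet (-5.34, limma adjusted p = 0.138). Rgs16, a regulator of G protein signalling that follows feeding, was at 111, 22.4 and 50.4 TPM on alcohol and listed at 0 in all 3 controls (limma adjusted p = 0.0630). Por, the cytochrome reductase gene, was at 147, 169 and 215 TPM on alcohol and 36.3, 45.6 and 35.7 TPM on control diet (2.14, SE 0.322, limma adjusted p = 0.102). The kinases and cues had no passing gene either, and their smallest p belonged to Ncor1 (-0.82, adjusted p = 0.751), Hdac3 (1.03, 0.813), Hsp90aa1 (-1.28, 0.652) and Dusp1 (-1.37, 0.732) in limma.

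Exons that overlap on the opposite strand limit what Nr1d1, Dbp and Tef show. In GENCODE vM21, 263 bases of Nr1d1 exons (8.55%) lie opposite Thra, a thyroid hormone receptor gene, and 539 bases of Dbp exons (18.0%) lie opposite Sphk2, a sphingosine kinase gene. Thra was at 680, 724 and 288 TPM in libraries labelled RageΔMye on alcohol and 514, 905 and 424 TPM in those on control diet, while it was at 0.484 to 0.717 TPM in WT on alcohol and 0.557 to 1.01 TPM in WT on control diet. Sphk2 was at 3123, 3071 and 2201 TPM in libraries labelled RageΔMye on alcohol and 822, 302 and 282 TPM in those on control diet. It was at 1.84, 3.34, 2.53 and 1.90 TPM in WT on alcohol and 4.39, 6.88, 6.48 and 6.64 TPM in WT on control diet (-1.07, SE 0.175, limma adjusted p = 0.00178). The neighbours were above Nr1d1 and Dbp in every library labelled RageΔMye, and Thra was below Nr1d1 in every WT library. In WT, Sphk2 fell and was above Dbp in 7 of the 8 libraries. The kit marks strand, the strand setting of the counting is not given in the sources used here, and its part in these values was not tested. Tef shares 193 bases (2.45%) with Gm17597, an antisense gene at 0 to 0.287 TPM in WT and at 0 in every library labelled RageΔMye.

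**Figure D5:**
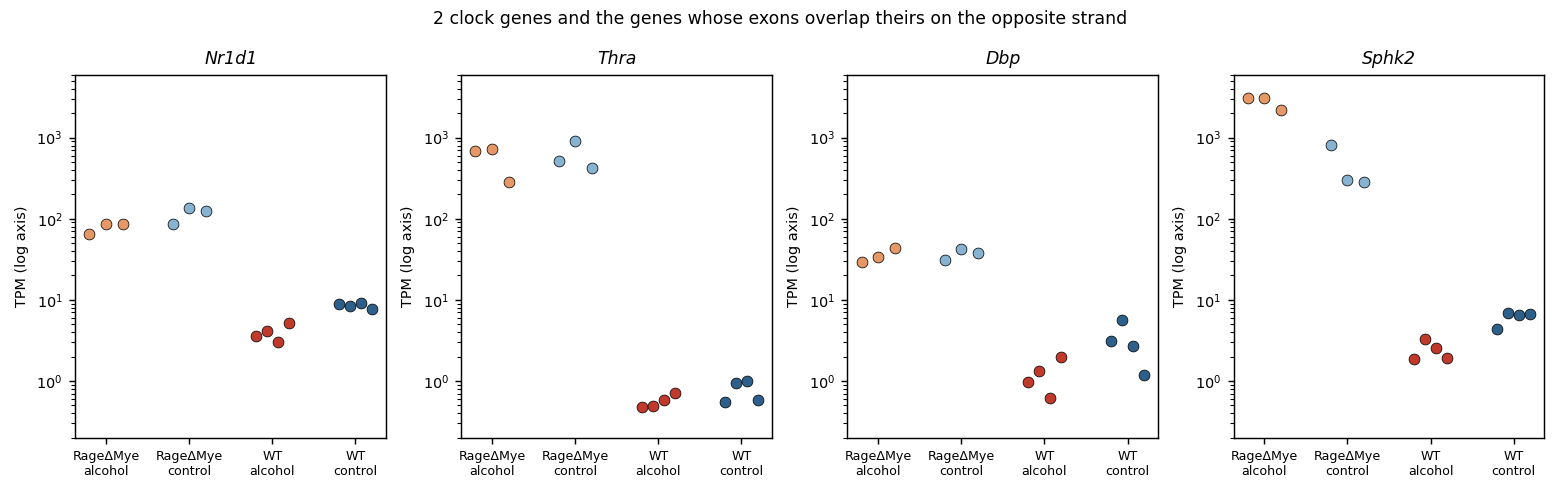
TPM on a log axis for Nr1d1 and Dbp, each beside the gene whose exons overlap its own on the opposite strand (Thra and Sphk2), with a point per liver library. Libraries labelled RageΔMye lie above WT libraries in all 4 panels, at 288 to 905 TPM for Thra and 282 to 3123 TPM for Sphk2.

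The difference of the diet effect between genotypes was tested with library weights per genotype. None of the 9 clock genes tested passed, where limma called 0.505% of 12069 genes. At an unadjusted p under 0.05 there was 1, Tef, where 8.5% of all genes were under it. Tef had the largest difference relative to its error, with the effect in libraries labelled RageΔMye higher than that in WT by 2.77 (SE 0.923, interval 0.79 to 4.76, limma adjusted p = 0.350). Tef was higher on alcohol in all 3 RageΔMye libraries and lower in all 4 WT libraries, so its diet groups lay in opposite order in the 2 genotypes. Without the weights Tef (limma adjusted p = 0.0126) and Arntl (0.0220) passed. In the repressor and output arm the difference was 2.46 for Per3, 1.62 for Nr1d2, 0.76 for Dbp, 0.60 for Per2 and 0.42 for Nr1d1. Their limma adjusted p lay between 0.712 and 0.949. For Arntl and Per1, whose values rest on a group listed at 0, the adjusted p was 0.743 and 0.611. Cry1 had a difference of 0.22 (limma adjusted p = 0.965). Among the rhythmic outputs none passed, and Wee1, a cell cycle kinase gene under clock control, had the smallest p (3.51, SE 0.724, limma adjusted p = 0.0538), at 11.0, 8.71 and 35.2 TPM in RageΔMye on alcohol and 1.02, 0 and 0.770 TPM on control diet. Xist passed the same test (-4.79, limma adjusted p = 0.0175), being higher on alcohol in WT.

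In RAW264.7 cells, given only as a further condition, 6 of the 10 clock genes were tested and none passed, where limma called 0.18% of 10559 genes. At an unadjusted p under 0.05 there was none either, against 8.31% of all genes. These cells listed no hepatocyte marker above 0. Nr1d1 was at 28.2, 33.5 and 31.5 TPM with the complex and 57.2, 36.4 and 52.6 TPM with BSA, all 3 complex libraries below all BSA libraries (-0.61, SE 0.275, interval -1.26 to 0.04, limma adjusted p = 0.593). Among all genes 7.91% were lower without overlap. Dbp was at 13.9, 8.94 and 11.7 TPM with the complex and 6.11, 10.2 and 9.77 TPM with BSA, which overlap (0.37, limma adjusted p = 0.770). Arntl was at 2.96, 3.08 and 2.75 TPM with the complex and 0, 2.95 and 3.54 TPM with BSA (0.59, limma adjusted p = 0.793). Per1 (0.04), Per2 (-0.43) and Tef (-0.75) did not pass, with limma adjusted p of 0.997, 0.881 and 0.755. Npas2 and Per3 were listed at 0 in all 6 libraries, and Cry1 and Nr1d2 were under the level for testing at 0 to 1.92 TPM.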

How the data were processed

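RNA was sequenced from 14 total liver and 6 RAW264.7 libraries made with a stranded mRNA kit. The submitters' processing notes give mm10 as the build. No source used here gives the aligner, counting tool or strand setting. The authors deposited 2 tables of 24972 gene symbols whose headers name no unit, and their values were read as TPM because they are not whole and each column sums to 1000000. TPM keeps no depth, and no counting interval is given. Tests of normalised values were used, since the alternative of count tests does not suit TPM. Differences were taken on log2(TPM + 1) by limma 3.58.1 (R 4.3.3) with an intensity trend. A gene was tested if the mean of any fitted group reached 1 TPM, and it passed at a Benjamini-Hochberg adjusted p under 0.05 over all tested genes. Each genotype and RAW264.7 were fitted alone, and the difference of effects came from a joint fit with library weights per genotype.

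The 10 clock genes and all gene lists were chosen with earlier results of these data known. All 10 genes are named, as are passing genes of the other clock factors, up to 5 passing genes of each other list in order of p (with none passing, its first 2), the 3 most alike genes, and opposite-strand neighbours. A gene that this rule selects is not reported here, though the counts of its list include it. Positions and overlaps come from GENCODE vM21 (mm10) and promoters from RefSeq. The scripts were tested on simulated data with known changes. Alternatives were other pseudocounts, filters, quantile normalization, joint fits, weights, a replicate block, and omission of each library. Replicate numbers of RageΔMye and RAW264.7 titles were checked for pairing.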

Additional observations from a re-analysis of the deposited data

Results flagged for a closer look

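Among 48 groups of 4 WT libraries checked for a sample far from the rest, 2 were flagged, and chance flags about 1 in 20 groups. Usp2 was at 3.78 TPM in WT alcohol replicate 1, below the other alcohol libraries at 4.65 to 4.80 TPM. Hsph1 was at 10.3 TPM in WT alcohol replicate 2, above the other alcohol libraries at 5.73 to 6.50 TPM. Neither is one of the 10 clock genes, and both alcohol values lay below every WT control library. No difference of diet effects between genotypes passed for a clock gene, so none was flagged.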

How the results depend on the processing

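In WT liver 4 clock genes passed, and 3 to 5 did when each library was left out. Nr1d1, Per3 and Tef passed in all 8 of those fits, and Per2 in 4. A joint fit of all liver libraries, which lends WT the wider spread of the libraries labelled RageΔMye, left 1 clock gene, Nr1d1 (adjusted p = 0.0277). In the libraries labelled RageΔMye that joint fit passed 2 clock genes (Arntl and Tef) where none passed otherwise, and the difference of effects without library weights passed 2 (Arntl, adjusted p = 0.0220, and Tef, 0.0126) where none did with them. Over all genes the counts in WT were 3042 in the fit of WT alone, 337 in the joint fit and 1881 with a filter at 5 TPM, and in RageΔMye 4 alone and 657 jointly. For the difference they were 61 with weights, 463 without weights and 128 with no filter on low values. Leaving out a library, no clock gene passed in RageΔMye, in RAW264.7 or for the difference (0 each).

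Signs changed for 5 values, none of which passed. Arntl in WT was -0.0060 at a pseudocount of 0.01 TPM, and it ran from -0.25 to 0.32 when libraries were left out. Likewise Dbp in RageΔMye ran from -0.22 to 0.045, Per2 in RageΔMye from -0.35 to 0.60, Arntl in RAW264.7 from -0.11 to 0.98 and Per1 in RAW264.7 from -0.20 to 0.24. The cause was not tested. Same-numbered RageΔMye libraries did not deviate together (correlations 0.0181, -0.0163 and -0.00020), nor did those of RAW264.7 (-0.0011, -0.0254 and -0.0132). With the replicate number as a block, 0 clock genes passed in each, and 0 genes in all, against 4 in RageΔMye and 19 in RAW264.7 without it. WT titles share no numbers, so no paired fit was made there. The unknown depth, the values listed at 0 in RageΔMye and the unknown time of collection limit what these data show.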
